A study of Mus musculus with 2 samples.

Results

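Malat1, Neat1, Miat and Pvt1 are long noncoding RNAs (lncRNAs) of mouse autosomes that are kept mainly in the nucleus. They were taken by name from the 25235 gene loci listed for 1 adult and 1 aged heart, and these 4 genes are described by allele and by level. The label of abundant transcripts held for Malat1 and Neat1, Pvt1 had an intermediate level, and Miat had 2 reads in each library. Nuclei were isolated from the frozen hearts of a 9-week-old and a 78-week-old female and measured by single-nucleus RNA sequencing (snRNA-seq). Both animals were F1 hybrids of a C57BL/6J (BL6) mother and a CAST/EiJ (CAST) father with wild-type Xist, as far as the labels give it, since their breed field names the Xist deletion cross. The values were pooled over nuclei with an active BL6 X chromosome (BL6 Xa), so each age is 1 library, no test between the ages was possible, and the intervals below (95%) cover counting error only. These intervals treat each read as independent, so they are too narrow where several reads come from 1 molecule. Because all autosomal BL6 alleles came from the mother, strain and parent of origin cannot be told apart.

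Reads were counted only where they covered a single-nucleotide polymorphism (SNP) between the strains. The adult library held 9747535 such reads over all genes and the aged library 5805807, and levels are given as reads per 1000000 (RPM) of these totals. A count of 3 reads, taken throughout as the limit that 0 reads allow, corresponds to 0.308 RPM in the adult and 0.517 RPM in the aged library. The allelic ratio is the share of BL6 reads, and over all autosomes BL6 held 53.4% of the adult and 53.8% of the aged reads. A total of 12736 genes had at least 20 reads in both libraries, among them Malat1, Neat1 and Pvt1 but not Miat. Their median ratio of aged to adult RPM was 1.17 (log2 0.22), so the ratios below are read against that value. By marker genes, both libraries were heart muscle: the 8 cardiomyocyte markers summed to 28843 RPM in the adult and 26350 RPM in the aged library, while the 3 hepatocyte markers, of which 2 were at 0 in the adult and 1 in the aged heart, summed to 0.616 and 2.41 RPM.

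Malat1 is concentrated in nuclear speckles, the bodies where splicing factors gather, and is among the most abundant nuclear RNAs of mammalian cells. RNase P cuts its 3′ end and releases a small tRNA-like RNA (mascRNA), and the end that remains has no poly(A) tail but is closed by a helix in which U-rich stretches pair with a stretch of A. Neat1 is the scaffold of paraspeckles, nuclear bodies that lie beside the speckles and hold RNA-binding proteins of the DBHS family. Its long isoform is processed like Malat1 and builds the body, whereas its short isoform ends at an ordinary polyadenylation signal. Miat, named after its association with myocardial infarction, carries repeats of the branch point sequence that the splicing factor SF1 binds. Pvt1 lies next to the oncogene Myc on a locus with many enhancers and hosts several microRNAs.

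The RNA ends and repeats that set these transcripts apart are shown first, as read from the GENCODE M21 transcripts (GRCm38), 5′ to 3′. The capitals mark the runs of at least 10 bases that the ends of Malat1 and long Neat1 share in the same order (TTTCTTTTCCTGA, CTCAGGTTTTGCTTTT and AAAAAGCAAAA, with T standing for U of the RNA), the polyadenylation signal AATAAA in short Neat1, and TACTAAC in Miat.
Malat1, last 100 bases before mascRNA, chr19:5795982-5796081, minus strand: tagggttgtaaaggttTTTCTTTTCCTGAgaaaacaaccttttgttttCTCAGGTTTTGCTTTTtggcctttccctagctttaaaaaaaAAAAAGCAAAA
Neat1, last 100 bases of the long isoform, chr19:5824708-5824807, minus strand: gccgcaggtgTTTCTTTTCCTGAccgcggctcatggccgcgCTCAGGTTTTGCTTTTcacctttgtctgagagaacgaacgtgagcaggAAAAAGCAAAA
Neat1, last 60 bases of the short isoform, chr19:5842307-5842366, minus strand: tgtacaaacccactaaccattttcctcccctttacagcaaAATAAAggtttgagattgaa
Miat, 57 bases of the repeats, chr5:112216754-112216810, minus strand: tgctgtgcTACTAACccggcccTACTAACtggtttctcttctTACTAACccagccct

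The shared runs of the Malat1 and Neat1 ends were 13, 16 and 11 bases long, the first 2 rich in U and the third, at the very end, rich in A. The mascRNA locus (chr19:5795924-5795981, 58 bases) begins at the base after the Malat1 end shown. Of the 33508 annotated lncRNA transcripts of at least 100 bases, 1, the long Neat1 itself, held all 3 runs in its last 100 bases on the transcribed strand. The runs were taken from this Neat1 end and the Malat1 end, so the match of Neat1 was fixed in advance. Malat1 is annotated beyond the end shown, with a transcript of 6983 bases in 1 exon, so this transcript could not be counted. Its longest run of A was 12 bases, against 7 in long Neat1 (20771 bases, 1 exon). The assay primes on stretches of A, and the part of such runs in the levels was not tested. Short Neat1 (3004 bases) has its AATAAA 20 bases from the end. The Miat transcript shown (8758 bases, 7 exons) held TACTAAC 6 times, and 3 of the 33554 annotated lncRNA transcripts, of which 2 were Miat transcripts, held it at least as often, whereas 96.9% held none. Pvt1 is spliced from 9 or 10 exons to 1563 or 3319 bases in its first 2 listed transcripts.

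RefSeq promoters (GRCm38.p6, 250 bases before to 50 after the start) were at hand for 2 of the 4 genes, which are the members with the most and the fewest reads. The capitals mark TGACGT, the core of the cAMP response element, in Malat1 and GGGCGG, the GC box, in Miat, on either strand.
Malat1, promoter, chr19:5802623-5802922, minus strand: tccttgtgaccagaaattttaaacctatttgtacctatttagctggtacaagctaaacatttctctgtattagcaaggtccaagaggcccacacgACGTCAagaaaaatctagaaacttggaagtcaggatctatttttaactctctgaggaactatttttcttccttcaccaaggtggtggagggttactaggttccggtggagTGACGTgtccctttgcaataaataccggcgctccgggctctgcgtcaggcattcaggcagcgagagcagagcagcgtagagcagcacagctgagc
Miat, promoter, chr5:112228899-112229198, minus strand: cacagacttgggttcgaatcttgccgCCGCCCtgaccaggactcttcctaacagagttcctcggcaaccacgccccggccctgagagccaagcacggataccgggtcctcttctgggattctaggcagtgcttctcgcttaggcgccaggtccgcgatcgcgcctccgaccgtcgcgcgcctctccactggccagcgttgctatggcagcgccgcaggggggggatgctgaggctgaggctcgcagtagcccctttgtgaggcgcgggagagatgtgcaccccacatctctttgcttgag

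The Malat1 promoter held TGACGT 2 times, a sequence found in 7.51% of 32851 promoters of the same length, and the Miat promoter held GGGCGG 1 time, found in 35.7%. TATAAA (13.6% of promoters), CCAAT (37.4%) and the E-box CACGTG (7.15%) were not found in these windows of either gene. Miat had 25 CG dinucleotides and a GC content of 64.3%, and Malat1 had 10 and 47%, where the median promoter had 7. These matches describe letters and not binding sites.

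Malat1 (chr19:5795690-5802671, minus strand, 6.98 kb) had 51169 reads from BL6 and 61766 from CAST in the adult heart, against 33713 and 39177 in the aged heart. Its total level was 11586 RPM (11519-11654) in the adult and 12555 RPM (12464-12646) in the aged library, or 1.16% and 1.26% of all reads. It ranked 3 by reads in the adult heart, after the calcium release channel Ryr2 and the sarcomere protein Ttn, and 2 in the aged heart after Ryr2. The ratio of aged to adult RPM was 1.08 (1.07-1.09; log2 0.12), which lies above 1 on the RPM scale but below 1, at 0.930, relative to the median gene. A higher ratio than that of Malat1 was found for 56.9% of the 12736 genes. Thus, the direction of Malat1 between the libraries depended on the scaling. The BL6 allele had 5249 RPM in the adult and 5807 RPM in the aged library (ratio 1.11, 1.09-1.12), and the CAST allele 6337 and 6748 RPM (1.06, 1.05-1.08), ratios that were 0.949 and 0.914 relative to the median gene.

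Neat1 (chr19:5824708-5845480, minus strand, 20.8 kb) lies upstream of Malat1 on the same strand, with 22036 bases between the loci. In the adult heart 7156 of its reads came from BL6 and 6745 from CAST, and in the aged heart 7120 and 5662. Its level was 1426 RPM (1402-1450) in the adult and 2202 RPM (2164-2240) in the aged library, with a ratio of 1.54 (1.51-1.58; log2 0.63) on the RPM scale and 1.32 relative to the median gene. The intervals of the 2 libraries did not overlap. The BL6 allele had 734 RPM in the adult and 1226 RPM in the aged library (1.67, 1.62-1.73), and the CAST allele 692 and 975 RPM (1.41, 1.36-1.46). The BL6 ratio was 1.19 times the CAST ratio (1.13-1.24), so that 63.5% of the RPM by which the aged library exceeded the adult came from BL6 reads. The files count the gene as a whole, and reads of the short isoform lie inside the long one, so the isoforms cannot be told apart.

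Pvt1 (chr15:62037986-62260215, plus strand, 222 kb) had 461 reads from BL6 and 372 from CAST in the adult heart and 667 and 585 in the aged heart, hence more reads in the shallower library. Its level was 85.5 RPM (79.8-91.5) in the adult and 216 RPM (204-228) in the aged library, a ratio of 2.52 (2.31-2.76; log2 1.34) on the RPM scale and 2.17 relative to the median gene. Both alleles showed it: the BL6 allele had 47.3 and 115 RPM (2.43, 2.15-2.74) and the CAST allele 38.2 and 101 RPM (2.64, 2.31-3.01), and the BL6 ratio was 0.920 times the CAST ratio (0.772-1.10). By reads it stood at rank 74 of the 1372 autosomal lncRNAs with 20 reads in the adult and at rank 20 in the aged library. By its ratio it stood at rank 80 of them. The pseudogene H2afy3 (chr15:62217541-62219451) lies inside Pvt1 and overlaps 1 of its GENCODE exons, where BL6 held 5 and CAST 16 reads in the adult heart and 1 and 32 in the aged heart, few beside those of Pvt1.

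Miat (chr5:112213228-112228948, minus strand, 15.7 kb) had no BL6 read and 2 reads from CAST in the adult heart, and 1 read from each allele in the aged heart. This corresponds to 0.205 RPM (0.0248-0.741) and 0.344 RPM (0.0417-1.24), under the level of 3 reads in both libraries. Thus, Miat was at the limit of detection, neither a ratio of the ages nor an allelic ratio can be given, and a difference between the ages was not detectable at this depth. Reads outside SNPs are not counted, and the number of SNPs in Miat was not examined.

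**Figure D1:**
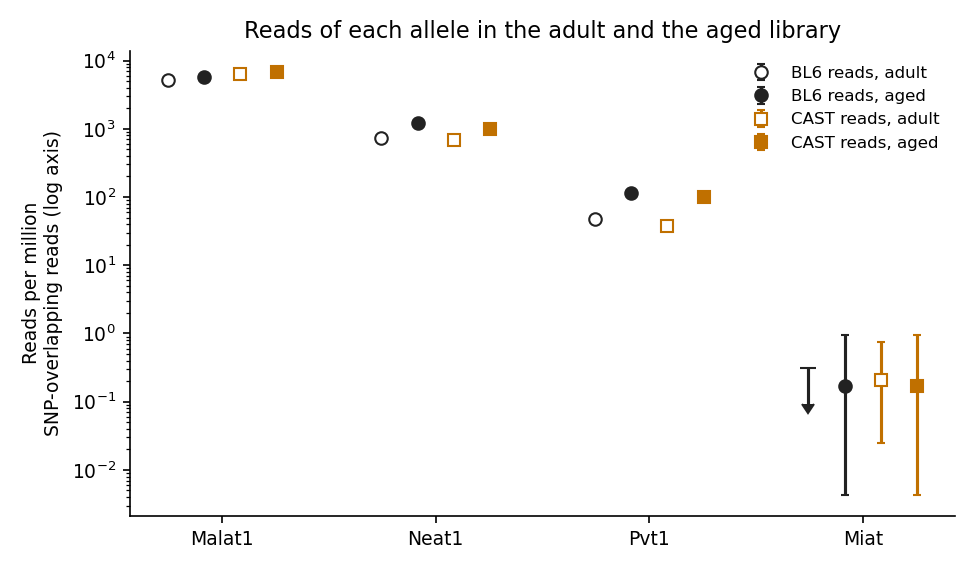
RPM of BL6 (circles) and CAST (squares) reads of the 4 genes in the adult (open) and aged (filled) library on a log axis, with 95% Poisson intervals, which are smaller than the symbols for most points; the arrow marks the level of 3 reads for the 0 BL6 reads of Miat in the adult. Neat1 and Pvt1 have higher points in the aged library for both alleles, whereas the Malat1 points differ by a ratio of 1.11 and 1.06, which falls below 1 relative to the median gene.

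Of the 3 genes with 20 reads in both libraries, Neat1 and Pvt1 had a ratio of at least 1.5, as did 28% of all 12736 genes, and none of the 3 had a ratio of 1/1.5 or lower, as did 11.8%. Relative to the median gene, Pvt1 alone of the 3 was past 1.5-fold, as were 18% of all genes, and the split of all genes past 1.5-fold then moved from 3571 higher and 1500 lower to 2289 higher and 2339 lower. The RPM interval of the aged library lay above that of the adult for all 3 genes, as for 34.2% of genes, and the narrow intervals of deeply counted genes make this common: with at least 1000 reads it was 52%. Among the 2446 genes counted at least 500 times in each library, 18.1% had a higher ratio than Neat1 and 1.31% a higher ratio than Pvt1. Thus, Pvt1 lay at the high end of the ratios, Neat1 in the upper part and Malat1 near the middle.

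**Figure D2:**
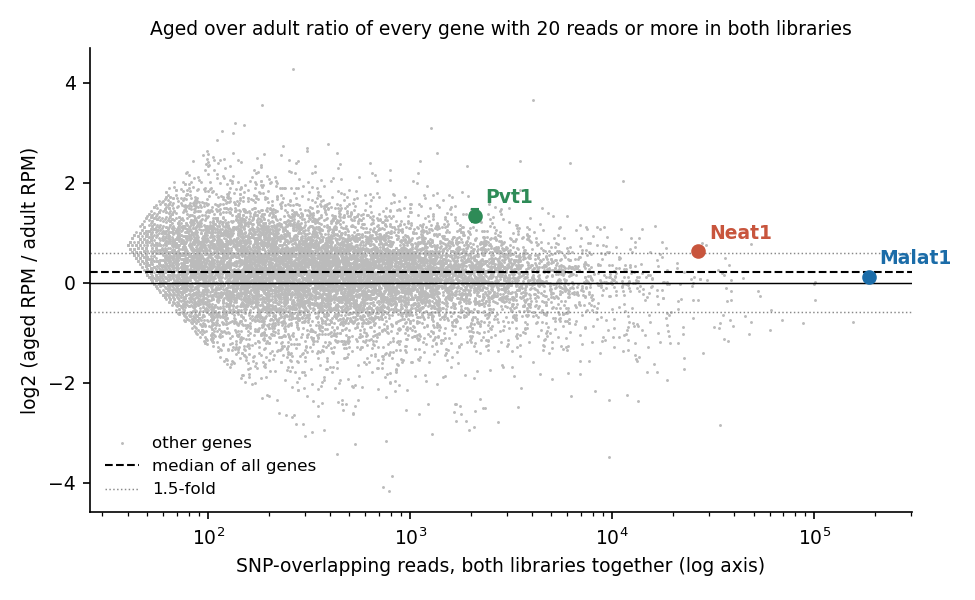
Log2 ratio of aged to adult RPM against the reads of both libraries together (log axis) for the 12736 genes with at least 20 reads in both; the dashed line is the median of all genes, the dotted lines mark 1.5-fold, and bars are 95% intervals. Pvt1 lies at 1.34, Neat1 at 0.63 and Malat1 at 0.12, which is above 0 but below the median line.

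The ratios of all genes also differed with the length of the locus, a comparison chosen after the values were seen. The median ratio was 1.38 for 2313 loci under 10 kb, 1.19 for 4278 loci of 10 to 30 kb, 1.12 for 3992 loci of 30 to 100 kb, 1.02 for 1648 loci of 100 to 300 kb and 0.925 for 505 longer loci. Malat1 falls in the first class, where 71.0% of genes had a higher ratio, and Neat1 in the second, where 27.4% did. Pvt1 falls in the class of 100 to 300 kb, where it ranked 36 of 1648 and 2.12% had a higher ratio. Relative to their own classes, the ratios were 0.786 for Malat1 and 1.29 for Neat1. The part of locus length in the members' ratios was not tested.

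Levels of different genes were compared per kb of locus, keeping in mind that the number of SNPs also enters them. Malat1 had 1659 RPM per kb in the adult heart and 1798 in the aged heart and ranked 1 of all genes in both. Neat1 had 68.7 and 106 RPM per kb, at rank 12 and 7 of all genes, and among the autosomal lncRNAs at rank 2 and 4. Pvt1 had 0.385 and 0.970 RPM per kb. Hence, the level of Malat1 per kb was 24.2 times that of Neat1 in the adult and 16.97 times in the aged library, and that of Neat1 was 179 and 109 times that of Pvt1. Without division by length, Malat1 had 8.12 and 5.70 times the reads of Neat1, and Neat1 16.7 and 10.2 times those of Pvt1. Since the assay primes on stretches of A, reads need not scale with locus length. The 222 kb of Pvt1 hold transcripts of 1563 or 3319 bases, so its values per kb depend strongly on the divisor. By reads, Malat1 ranked 1 of the 1372 autosomal lncRNAs in both libraries and Neat1 moved from rank 5 to rank 3. Lncpint, at rank 2 in both libraries, had 2022 RPM in the adult, above Neat1, and 2852 RPM in the aged library.

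Next, the alleles of each gene were compared. The allelic ratio of Malat1 was 0.453 (0.450-0.456) at 9 weeks and 0.463 (0.459-0.466) at 78 weeks, below 0.5 and below the autosomal BL6 share in both, so that CAST reads exceeded BL6 reads 1.21-fold and 1.16-fold. Both intervals of allelic ratio lay below the autosomal share for Malat1 alone of the 3 genes, as for 12.8% of 12390 autosomal genes and for 26.3% of the 1175 with at least 1000 reads. Of these 1175 genes, 7.57% had a lower allelic ratio than Malat1 in the adult heart and 13.3% in the aged heart. The difference in allelic ratio between the ages was small, with adult minus aged at -0.00944 (-0.0141 to -0.0048), although its interval left out 0. The median size of this difference among the 1175 genes was 0.0266. Without Malat1 and Neat1 the BL6 share of chromosome 19 was 54.8% and 55.3%, and with them 52.3% and 52.96%, so that both genes together lowered the share of the chromosome, although Neat1 alone, with 55.7% in the aged library, lay above it there.

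For Neat1 the adult allelic ratio of 0.515 (0.506-0.523) lay above 0.5 but below the autosomal share, whereas the aged allelic ratio of 0.557 (0.548-0.566) lay above both. Adult minus aged was -0.0423 (-0.0542 to -0.0303). A larger difference in either direction was found for 30.9% of the 1175 genes. The allelic ratio interval of the aged library lay above that of the adult for 2 of the 3 members, Malat1 and Neat1, as for 6.37% of autosomal genes and for 17.5% of those with at least 1000 reads. For Pvt1 the allelic ratio was 0.553 (0.519-0.588) and 0.533 (0.505-0.561), with adult minus aged at 0.0207 (-0.0230 to 0.0641), an interval that holds 0. Both Pvt1 intervals included the autosomal share. Whether mapping favoured an allele at the SNPs of these genes was not tested.

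**Figure D3:**
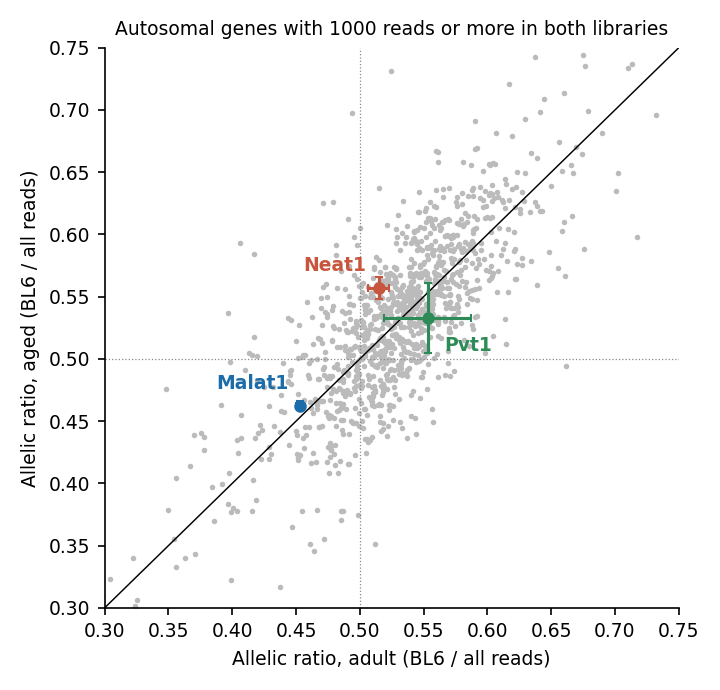
Allelic ratio (BL6 over all reads) in the adult against the aged library for autosomal genes with at least 1000 reads in both (grey, 1151 plotted and 24 beyond the axes), with Malat1, Neat1 and Pvt1 in color; Pvt1 had 833 reads in the adult. Bars are 95% Clopper-Pearson intervals, dotted lines mark 0.5 and the diagonal equal ratios. Malat1 lies below 0.5 on both axes, Neat1 above the diagonal, and the bars of Pvt1 cross it.

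Malat1 and Neat1 share a gene-dense stretch of chromosome 19. Within 500 kb of Malat1 the files listed 68 loci, of which 43, Neat1 included, had 20 reads in both libraries. Of these, 37 had a higher RPM in the aged library, 22 had a ratio of at least 1.5 and 2 of at most 1/1.5, with a median ratio of 1.54. Over all genes, 64.2% had a higher RPM in the aged library, and 28% and 11.8% were past these limits. Thus, Neat1 with 1.54 was itself the median of these genes and Malat1 with 1.08 lay below it. Most of these neighbours were loci under 30 kb. Over all loci under 10 kb, 43.2% had a ratio of at least 1.5 and 6.36% of at most 1/1.5. For loci of 10 to 30 kb the shares were 29.7% and 9.70%. The part of locus length in the neighbour counts was not tested. The neighbours were low, with a median of 7.18 RPM in the adult and 12.1 RPM in the aged library. Frmd8, beyond Neat1, had 17.2 RPM in the adult and 28.2 RPM in the aged library. The median allelic ratio of the neighbours was 0.542 and 0.547, above that of Malat1 in both libraries.

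**Figure D4:**
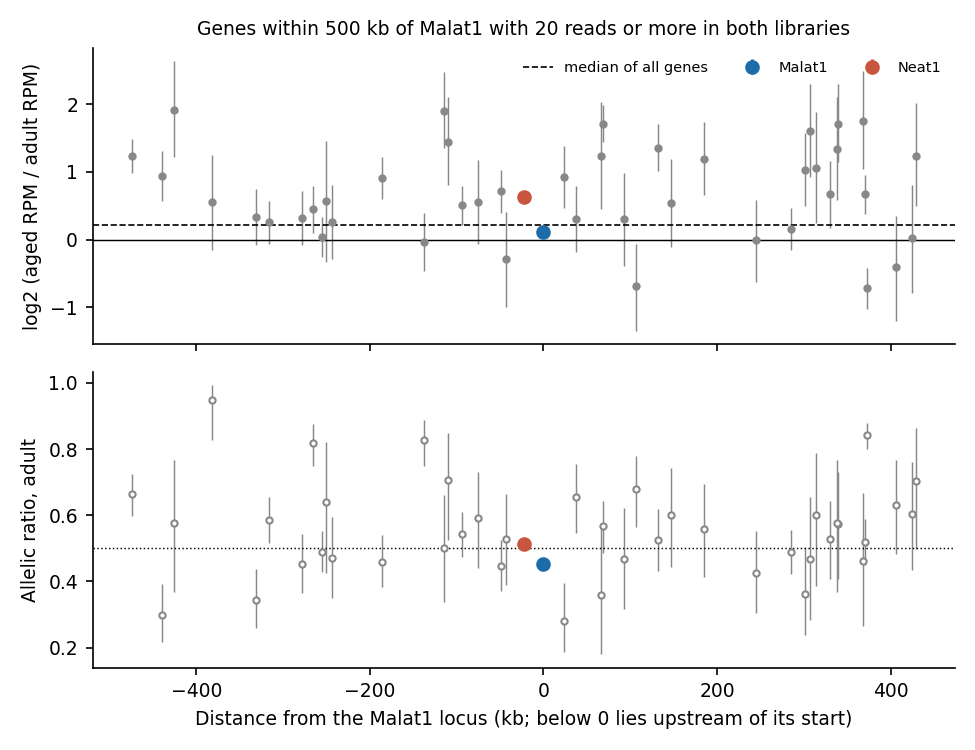
Genes within 500 kb of Malat1 with at least 20 reads in both libraries, by distance in kb from the locus; values below 0 lie upstream of its start. The upper panel gives the log2 ratio of aged to adult RPM with the median of all genes as a dashed line, and the lower panel the adult allelic ratio with a dotted line at 0.5, both with 95% intervals. The neighbours scatter widely with wide intervals, whereas Neat1 (0.63) and Malat1 (0.12, below the median of all genes) have intervals within the symbols.

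Around Pvt1 the files listed 4 loci within 500 kb, and H2afy3 alone had 20 reads in both libraries. Myc, 47624 bases away, had 2 reads in the adult heart and 9 in the aged heart, so its level was near the limit of detection while Pvt1 had 833 and 1252 reads. Around Miat, 4 of 20 loci had 20 reads in both libraries. The sulfotransferase gene Tpst2, 47733 bases away, had 14.7 RPM in the adult and 34.6 RPM in the aged library, and the myosin gene Myo18b, 459927 bases away, had 289 and 354 RPM, so genes around Miat had reads while Miat had 2 in each library.

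The genes with the most similar levels were found by the distance over the 4 log2 values (BL6 and CAST RPM in both libraries). The nearest to Malat1 were Ryr2 at 0.393, Ttn at 1.30 and the sodium-calcium exchanger Slc8a1 at 1.95. The nearest to Neat1 were Ablim1 at 0.240, Pdlim5 at 0.278 and Ptprg at 0.601, and the nearest to Pvt1 were the lncRNA Gm36507 at 0.189, Palm at 0.229 and the endothelial adhesion molecule Pecam1 at 0.287. Since 4 values of 2 libraries enter, this describes level and not regulation.

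The 4 genes were then set beside other lncRNAs. Of a list of 43 named lncRNAs, 30 had 20 reads in both libraries, and 17 of them had a ratio of at least 1.5 and 3 of at most 1/1.5, with a median log2 ratio of 0.84 against 0.22 for all genes. Among them were hosts of small nucleolar RNAs such as Snhg11 (6.45, 4.88-8.64), Gas5 (4.08, 3.28-5.10) and Snhg12 (3.28, 1.92-5.76). Carmn, an lncRNA of cardiac and smooth muscle cells, had 2.99 (2.75-3.25), and Bvht, known from cardiac commitment, 3.39 (2.85-4.04). The list was not representative, because over all 1372 autosomal lncRNAs 26.9% were past 1.5-fold higher and 21.0% lower, with a median log2 ratio of 0.10, which turned to -0.12 when scaled to the median gene. Carmn and Bvht, and Mir99ahg and Dleu2 named below, overlap other loci, and whether strand was used in counting is not known here. Thus, Pvt1 ranked high among lncRNAs in general, but within the named list 8 had a higher ratio. Lncpint, the lncRNA next to Malat1 in reads, had a ratio of 1.41 (1.38-1.44) and, like Malat1, a low allelic ratio of 0.404 and 0.424. Mir99ahg, whose adult RPM of 1433 was close to that of Neat1, had 800 RPM in the aged library (0.558, 0.540-0.577), and Mir100hg and Dleu2, the next of the named list by reads, had ratios of 1.06 (1.02-1.10) and 1.01 (0.964-1.06).

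**Figure D5:**
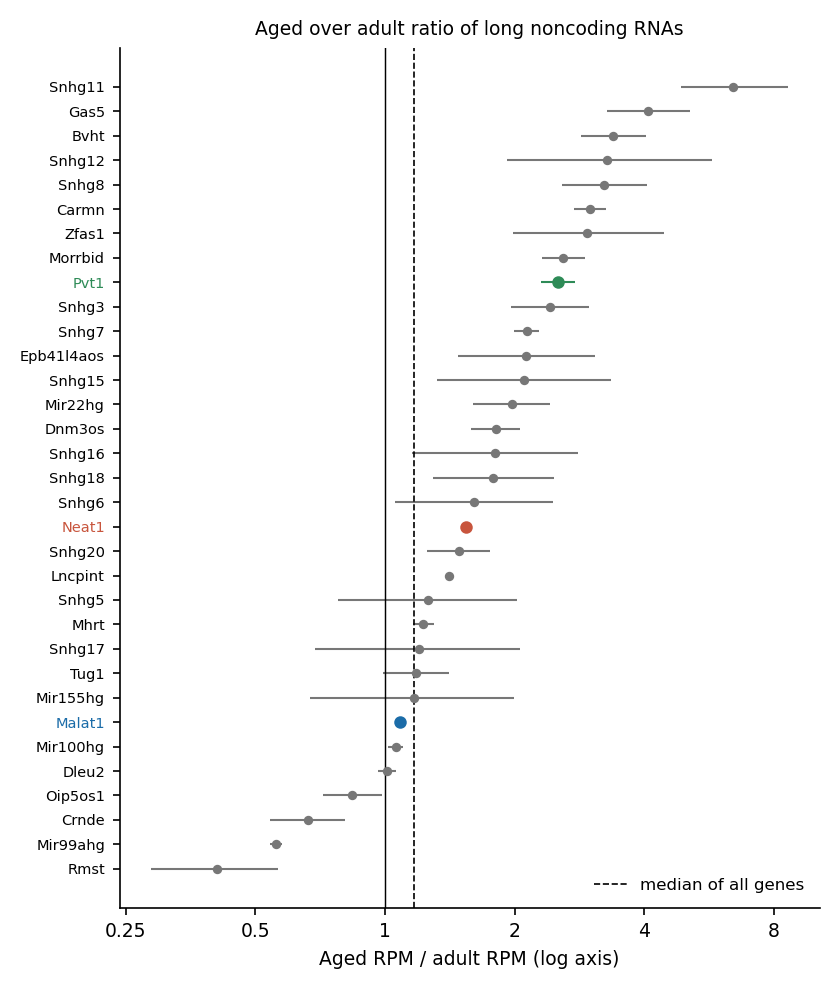
Ratio of aged to adult RPM on a log axis with 95% intervals for the 30 named lncRNAs with at least 20 reads in both libraries (grey) and for Malat1, Neat1 and Pvt1 (color); the dashed line is the median of all genes. Pvt1 (2.52) lies in the upper part, Neat1 (1.54) near the middle, and Malat1 (1.08) above 1 but left of the median of all genes.

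Proteins that act with these RNAs were described by lists. All 22 paraspeckle proteins had 20 reads in both libraries, and 5 had a ratio of at least 1.5 and 0 of at most 1/1.5, with a median log2 ratio of 0.30 against 0.22 for all genes. Relative to the median gene 1 was higher and 1 lower, and without overlapping loci 2 were higher. The highest were Hnrnph3 (1.86), Dazap1 (1.58), Ewsr1 (1.57) and Tardbp (1.57), all RNA-binding proteins, and Hnrnph3, Ewsr1 and Tardbp overlap other loci. The DBHS proteins that carry the body had lower ratios, with 1.01 (0.930-1.10) for Pspc1, 1.26 (1.15-1.39) for Sfpq and 1.11 (0.858-1.43) for the X-linked Nono, against 1.54 for Neat1. Sfpq also overlaps another locus. Of 25 nuclear speckle and SR proteins, all with 20 reads in both, 4 had a ratio of at least 1.5 (Sf3b2 2.07, Thrap3 1.76, Luc7l3 1.59 and Bclaf1 1.57) and 1 of at most 1/1.5 (Srsf9 0.621), with a median log2 ratio of 0.30, and relative to the median gene 2 were higher and 2 lower. Rbm25 and Rbm39, the splicing factors with the most reads of this list, had 1.24 (1.18-1.31) and 1.21 (1.14-1.28), and Son, a core protein of the speckle, had 1.28 (1.20-1.36). Son overlaps another locus.

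Among 13 factors of RNA 3′ ends, mostly RNase P subunits, 9 had 20 reads in both libraries. Of these, 2 were past 1.5-fold higher and 0 lower, and 1 was higher relative to the median gene. The 2 were Rpp38 (2.08, 1.19-3.68), which overlaps another locus, and Rpp21 (1.68, 1.14-2.48). Both had few reads and overlapping RPM intervals, and with at least 100 reads 0 were past 1.5-fold higher. Elac2, the RNase Z that trims mascRNA, had 1.09 (0.827-1.44), and Mettl16, which binds the Malat1 end, 1.17 (1.01-1.34). Elac2 overlaps another locus, as does Celf2, named next. Of 5 proteins tied to the Miat repeats, 4 had 20 reads in both libraries and 0 were past 1.5-fold. Celf2 (2795 and 2963 RPM) and Qk (1609 and 1602 RPM) were among them, hence genes of these proteins were well covered where Miat had 2 reads in each library. Of 9 genes of Myc and its partners, 7 had 20 reads in both, and 2 were past 1.5-fold higher and 0 lower. These 2 were Max (1.61, 1.47-1.76) and Mlx (1.73, 1.02-2.94). Mlx overlaps another locus and had few reads and overlapping RPM intervals. Relative to the median gene 0 were higher and 3 lower. For comparison, 28% of all genes were past 1.5-fold higher and 11.8% lower, or 18.0% and 18.4% relative to the median gene.

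The libraries also differed in the sums of cell type markers. Fibroblast markers summed to 616 RPM in the adult and 1028 RPM in the aged library (ratio 1.67), most of it Dcn (461 and 773 RPM). Of the 6 with 20 reads in both, 5 were past 1.5-fold higher, against 28% of all genes, and Col1a2 had 0.888. Relative to the median gene, Lum, Tcf21 and Gsn remained past 1.5-fold, and Pdgfra and Dcn did not. The 7 markers of pericytes and smooth muscle summed to 207 and 486 RPM (2.35), with Kcnj8 at 0 in both and Abcc9 at a ratio of 0.853. Endothelial markers summed to 722 and 1077 RPM (1.49). Of these 7, 3 were past 1.5-fold (Pecam1 2.31, Kdr 1.88 and Flt1 1.84). Ptprb had 1.26, whereas Tek (1.14), Cdh5 (1.12) and Vwf (0.953) lay below the median gene. Macrophage markers summed to 295 and 472 RPM (1.60). Of the 5 with 20 reads in both, 3 (Mrc1, F13a1 and Adgre1) were past 1.5-fold, but not relative to the median gene. The cardiomyocyte sum had a ratio of 0.914, which Ttn alone (0.580) brought below 1. On the RPM scale 6 of the 8 markers were higher in the aged library, and their median ratio was 1.15. Without Ttn, a sum taken after the values were seen, the ratio was 1.15. Both values lie slightly below the 1.17 of the median gene. Relative to it, Ttn, Tnnt2, Pln, Myh6 and Ryr2 were lower, and Actn2, Myl2 and Tnni3 were higher. The endocardial marker Npr3 (186 and 104 RPM), lymphocyte (20.8 and 7.92 RPM) and mesothelial markers (46.5 and 11.4 RPM) were lower in the aged library. Adipocyte, Schwann cell, erythroid and neuronal markers had ratios of 0.882, 1.26, 0.896 and 1.48. In the pooled counts alone, fewer cells of a type and less RNA per cell cannot be told apart. The paper counted nuclei by cell type in both hearts, not only those with BL6 Xa. It reports a lower share of cardiomyocytes and a higher share of fibroblasts in the aged heart. The part of these shifts in the ratios of Neat1 and Pvt1 was not tested.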

How the data were processed

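The labels give snRNA-seq of the heart of 1 adult and 1 aged F1 female. For each age the deposited table gives counts of SNP-overlapping reads per gene for the BL6 and CAST allele with their total, a deposited fraction (allelic ratio, rounded to 2 decimals) and a deposited allelic score, which was not used. The authors prepared 10x Chromium 3′ libraries, aligned reads with Cell Ranger (7.1.0 in the submitters' processing notes, which also name Seurat 5.1.0), split them by nucleus with sinto, pooled the BL6 Xa nuclei and ran Allelome.PRO2 with RefSeq genes of GRCm38. DoubletFinder was applied to the nuclei per the study's methods, and whether its doublets were also left out of the pooled allelic counts is not given in the sources used here. Whether strand was used in counting is not given in the sources used here. The age of the aged heart was taken from its labels, from which its file name differs.

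From the counts, RPM with exact Poisson intervals, ratios with exact conditional binomial intervals, allelic ratio with Clopper-Pearson intervals and differences of allelic ratio with Newcombe intervals were computed (Python 3.11.15, scipy 1.17.1) at 95%. A minimum of 20 reads in both libraries and a ratio of 1.5 were applied, and the computation was tested on simulated data. The number of reads limits precision, and reads without molecular identifiers are not independent molecules. The starts in the files were read as counted from 0, since 66.4% of 23061 loci matched by symbol began 1 base before RefSeq's start and 0.971% at it. Members, lists and comparisons were chosen with earlier results of these data known. Named genes were the 4 members, overlapping and nearest loci, the 3 most similar genes of each member, and in each list those with the most reads and up to 4 past 1.5-fold whose intervals did not overlap. Genes named outside this rule, for their role or to complete a count, were chosen after their values were seen. Among them were Carmn, Sfpq, Nono, Son, Bclaf1, Elac2, Rpp38, Rpp21, Mlx, Frmd8, Tpst2 and Myo18b, and single cell type markers. Older symbols of listed genes were matched through RefSeq synonyms. Alternatives were other scalings, read minimums and folds, and overlapping loci left out. Some genes that the rule would name are not reported here.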

Additional observations from a re-analysis of the deposited data

How the results depend on the processing

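No paired analysis was possible because each age has 1 library. Scaling to reads without the 100 most read genes, to the median gene (median-of-ratios size factor) and to the upper quartile gave ratios of 1.03, 0.930 and 0.987 for Malat1, 1.47, 1.32 and 1.41 for Neat1, and, for the latter pair of scalings, 2.17 and 2.30 for Pvt1, so the direction of Malat1 turned under both of the latter. In the same order, the BL6 reads of Malat1 gave 1.05, 0.949 and 1.01 and its CAST reads 1.01, 0.914 and 0.970, and the BL6 reads of Neat1 gave 1.59, 1.43 and 1.52 and its CAST reads 1.34, 1.21 and 1.28. Relative to the median gene, Pvt1 gave 2.08 for BL6 and 2.27 for CAST. Relative to loci of the same length, an alternative chosen after seeing the data, Malat1 turned to 0.786 and Neat1 gave 1.29. Leaving the reads of H2afy3 out of Pvt1, also chosen after seeing the data, kept its ratio and allelic ratio within the counting error. Centred on the autosomal BL6 share, the allelic ratio was 0.420 and 0.425 for Malat1, 0.481 (turned to below 0.5) and 0.520 for Neat1, and 0.495 (turned) for aged Pvt1, and the deposited allelic ratio of adult Malat1 is 0.45. The share of genes past the fold was 43.7% higher and 19.97% lower at a looser fold, 11.5% and 5.14% at 2-fold, 18.0% and 18.4% relative to the median gene, and 18.7% lower with at least 1 read. The median log2 ratio relative to the median gene was 0.0794 for the paraspeckle and 0.0781 for the speckle list and -0.12 for the autosomal lncRNAs, which gave 0.17 with at least 100 reads and 0.00745 without overlapping loci. Of 56 list counts under alternatives, 34 stayed within 1.5 times. The causes were not tested, and Miat had too few reads for any alternative.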

Other observations

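Other single lncRNAs with many reads, which were not named above, had higher or lower RPM in the aged library. D830005E20Rik, at rank 3 of the autosomal lncRNAs by adult reads, had 1487 RPM in the adult and 756 RPM in the aged library, and Gm20619 had 1089 and 397 RPM. In contrast, Gm31251 had 640 and 1026 RPM, and Sorbs2os had 1152 and 1160 RPM. The ratio of D830005E20Rik was 0.508 and that of Gm31251 1.60.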
